A study of Mus musculus with 20 samples.

Results

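A set of 6 single genes was followed across mouse gastric organoids that were or were not dysplastic: Enpp2, Cp, Nes, Iyd, Nt5e and Gyk. They were picked for separating dysplastic from non-dysplastic lines in these same data, so that contrast chose them and is given below as a description with no test. They are 6 of the 24047 genes of the count table, and all 6 passed the filter on low counts that left 13476 genes. Organoids are epithelial cultures grown in 3 dimensions, here from the stomach of BL/6 mice in conditioned medium. The 20 RNA-seq libraries came from 8 lines, each named by the number that opens its library titles. Lines 300 and 1269 were wild type (WT) for p53 and non-dysplastic, with 2 libraries each. Lines 650 and 1270 were p53 knockout (KO) and non-dysplastic, with 2 libraries each, the knockout having been made in vivo for line 650 and ex vivo for line 1270. Lines 565 and 752 were WT and dysplastic, and lines 794 and 801 were dysplastic with an in vivo KO, each with 3 libraries. The labels name no Cre, promoter, guide or agent for the KO and no treatment that produced dysplasia, and they do not say whether lines came from separate animals, so spread between lines may be technical.

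The 6 genes belong to unrelated pathways. Enpp2 encodes autotaxin, a secreted lysophospholipase D that makes the lipid mediator lysophosphatidic acid (LPA), which acts through G protein-coupled receptors. Cp encodes ceruloplasmin, a copper-carrying ferroxidase that oxidises iron leaving cells, and Nes encodes nestin, an intermediate filament protein known from neural progenitors and from mesenchymal and vascular cells. Iyd encodes iodotyrosine deiodinase, which recovers iodide from iodinated tyrosines and is best known in the thyroid. Nt5e encodes CD73, a membrane enzyme that makes adenosine from extracellular AMP, and Gyk, the X-linked gene now named Gk, encodes glycerol kinase, which phosphorylates glycerol for lipid and energy metabolism. In organoids these transcripts are read in bulk RNA, where fewer cells of a kind and less RNA per cell cannot be told apart.

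Promoter sequence from RefSeq (build GRCm38.p6, a later build than that of the counts) is shown for 3 of the genes, Iyd and Gyk because they were lower together in dysplastic lines and Nes as a gene from the opposite direction. Each run ends before the first annotated exon and is written 5′ to 3′ on the gene's strand. Capitals mark letters that matched one of 6 short motifs on either strand. The runs are chr10:3540024-3540239, plus strand, for Iyd, chrX:85776820-85777069, minus strand, for Gyk, and chr3:87970843-87971077, plus strand, for Nes.
Iyd: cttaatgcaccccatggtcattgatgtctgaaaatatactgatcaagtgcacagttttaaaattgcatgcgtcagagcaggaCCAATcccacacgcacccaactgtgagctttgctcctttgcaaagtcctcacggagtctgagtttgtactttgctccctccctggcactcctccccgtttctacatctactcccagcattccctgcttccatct
Gyk: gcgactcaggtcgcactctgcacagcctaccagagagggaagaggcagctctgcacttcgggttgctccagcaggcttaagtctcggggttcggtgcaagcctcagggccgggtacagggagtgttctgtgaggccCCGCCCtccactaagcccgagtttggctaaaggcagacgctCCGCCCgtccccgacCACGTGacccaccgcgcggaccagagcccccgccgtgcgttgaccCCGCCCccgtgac
Nes: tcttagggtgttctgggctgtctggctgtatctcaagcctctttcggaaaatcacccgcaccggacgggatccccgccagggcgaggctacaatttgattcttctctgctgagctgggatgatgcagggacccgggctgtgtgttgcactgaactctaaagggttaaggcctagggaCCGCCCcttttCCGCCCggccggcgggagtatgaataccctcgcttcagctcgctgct
The Gyk run is 250 bases long, and the Iyd and Nes runs are cut to 216 and 235 bases before the first annotated exon. In these runs the Iyd sequence held 1 CCAAT, the Gyk sequence held 3 GGGCGG and 1 CACGTG, and the Nes sequence held 2 GGGCGG. None of the marked matches overlapped another. Over 32851 upstream windows of 250 bases, the motif TATAAA occurred in 12.4%, the motif CCAAT in 33.8%, the motif GGGCGG in 32.7%, the motif CACGTG in 6.02%, the motif TGANTCA in 6.75% and the p53 half-site in 7.13%. The uncut window of Iyd also held 1 TATAAA. Iyd and Gyk shared no marked motif, and the p53 half-site was not among the letters of any of the 3 runs. A match is only a run of letters and was not tied to any measurement here.

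Libraries held 5.67e6 to 16.3e6 counts and lines 22.2e6 to 36.9e6. Values are given as CPM, that is counts scaled to a common library total after TMM normalisation. Trp53, the knocked-out gene, read 112 to 161 CPM in WT lines and 4.99 to 26.9 CPM in KO lines, every KO line being lower. Epithelial transcripts dominated every line, the 19 gastric epithelial markers summing to between 15437 and 22233 CPM. Atp4b, which with Atp4a forms the acid pump of parietal cells, was at 0 in all lines, while Atp4a read 0.676 to 1.87 CPM. A group of 6 libraries (300-2, 650-2, 565-3, 752-3, 794-3 and 801-3) stood apart from their sister libraries of the same line: their log2 ratio to those sisters declined with exon length, with slopes of -0.41 to -0.18 per doubling, over 10422 genes. In lines 300 and 650, with 2 libraries, the slope is mirrored and does not tell which library differs. By Xist and Ddx3y, lines 300 and 650 were male and all the others female, so sex is partly confounded with dysplasia.

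Enpp2, Cp and Nes were on average higher in dysplastic lines, and Iyd, Nt5e and Gyk lower. Every one of the 4 dysplastic lines was above every one of the 4 non-dysplastic lines for Enpp2 and Cp, as held for 1.74% of all genes tested. The dysplastic lines were all below the non-dysplastic lines for Iyd, Nt5e and Gyk, as held for 1.31% of all genes. For Nes the lines overlapped. Since this contrast picked the genes, nothing is read from these counts. Whether libraries of the classes or genotypes overlapped is given below for each gene. The share of all genes with such an order of libraries was not counted, so nothing is read from it either. In CPM the spread over lines was wider on the dysplastic side for all 6 genes. On the scale of log2(CPM + 1) this did not hold for Cp, with an SD of 0.632 over dysplastic and 1.33 over non-dysplastic lines. KO dysplastic lines 794 and 801 lay farthest from the non-dysplastic lines for all 6 genes, as the plot of CPM by line shows.

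**Figure D1:**
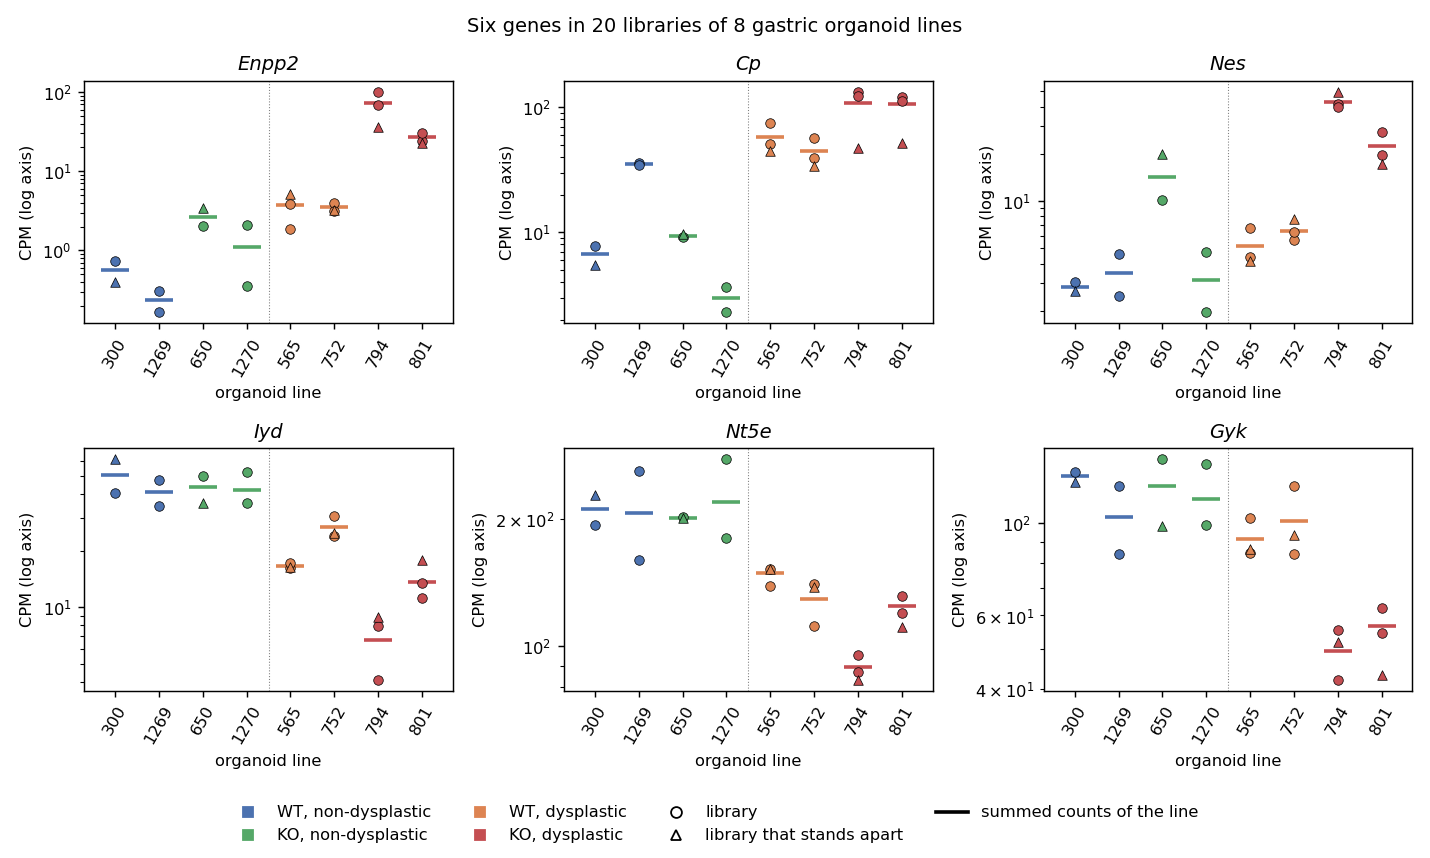
CPM (log axis) of the 6 genes in each of the 20 libraries, arranged by organoid line; circles are libraries, triangles the 6 libraries that stood apart, horizontal bars the summed counts of the line, and colours the genotype and dysplasia class. Lines 794 and 801 are the highest for Enpp2, Cp and Nes and the lowest for Iyd, Nt5e and Gyk, while the non-dysplastic line 650 reaches 14.3 CPM for Nes, above both WT dysplastic lines.

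Enpp2 was nearly silent in WT non-dysplastic organoids and highest in the dysplastic KO lines. Its libraries read 0.736 and 0.395 CPM in line 300 and 0.310 and 0.165 CPM in line 1269, the last from 2 counts. In the KO non-dysplastic lines they read 2.06 and 3.46 CPM (line 650) and 2.08 and 0.357 CPM (line 1270). The WT non-dysplastic libraries were all below 1 CPM, and only library 1270-2 of the KO non-dysplastic ones fell among them. The 6 WT dysplastic libraries had a lowest value of 1.87, a median of 3.58 and a highest value of 5.09 CPM, and the 6 KO dysplastic libraries 22.5, 33.4 and 100.1 CPM. The KO dysplastic libraries therefore did not overlap any other library, whereas 3 of the 12 dysplastic libraries, all WT, lay within the range of the non-dysplastic ones. Over the 4 dysplastic lines Enpp2 averaged 26.8 ± 32.9 CPM, against 1.14 ± 1.07 CPM over the 4 non-dysplastic lines (SD). The closest lines across the divide were WT line 752 at 3.48 CPM and KO line 650 at 2.65 CPM, which do not differ beyond the spread of their libraries, nor do lines 565 (3.69 CPM) and 752. Line 794, at 73.3 CPM, was above line 801, at 26.8 CPM, in every library. The dysplastic to non-dysplastic difference was 3.16 ± 0.72 on the log2 scale among WT and 4.75 ± 0.68 among KO lines (SE).

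Cp separated the classes at the level of lines but by little at its edge. Its libraries read 7.82 and 5.53 CPM in line 300, 35.9 and 34.6 CPM in line 1269, 9.22 and 9.66 CPM in line 650, and 2.30 and 3.63 CPM in line 1270. Line 1269 thus stood well above the other non-dysplastic lines, in both of its libraries. The WT dysplastic libraries ran from 34.1 through a median of 47.5 to 74.6 CPM, and the KO dysplastic libraries from 46.9 through 116 to 132 CPM. Library 752-3, the lowest of the dysplastic ones, lay below both libraries of line 1269, and the line sums were 44.7 CPM for line 752 and 35.1 CPM for line 1269. The dysplastic lines averaged 79.1 ± 32.8 CPM of Cp and the non-dysplastic lines 13.5 ± 14.6 CPM (SD, n = 4 each). In lines 794 and 801 the sums were nearly equal, at 107.9 and 106.5 CPM. The dysplastic to non-dysplastic difference was 1.29 ± 0.76 among WT and 4.13 ± 0.86 among KO lines on the log2 scale (SE).

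Nes was highest in the 3 lines with an in vivo KO, dysplastic or not. In the non-dysplastic WT libraries it read 3.04 and 2.67 CPM (line 300) and 2.48 and 4.63 CPM (line 1269). The KO non-dysplastic libraries read 10.2 and 19.8 CPM in line 650 and 4.75 and 1.96 CPM in line 1270. Line 650, whose KO was made in vivo, was thus above line 1270, whose KO was made ex vivo, in both libraries. Line 650 was also male and line 1270 female, so mode of KO, sex and line cannot be told apart here. Their fibroblast marker sums differed too, as given below. WT dysplastic libraries ran from 4.14 through a median of 6.00 to 7.65 CPM, all below both libraries of line 650, and KO dysplastic libraries from 17.3 through 33.5 to 49.5 CPM. Of the 12 dysplastic libraries, 8 lay within the non-dysplastic range. The mean over dysplastic lines was 19.3 ± 17.7 CPM and over non-dysplastic lines 5.94 ± 5.56 CPM (SD, n = 4 each), with line sums of 43.0 CPM in line 794, 22.5 CPM in line 801 and 14.3 CPM in line 650 on top. The order of the lowest 3 lines (1269, 1270 and 300, at 3.497, 3.14 and 2.86 CPM) was not resolved by their libraries.

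Because nestin is also made by mesenchymal and neural cells, their markers were read in the same lines. The 8 fibroblast markers, led by Col1a1 and none at 0 throughout, summed to 35.8 CPM in line 650 and to 12.7 and 12.5 CPM in lines 794 and 801, against 5.17 to 7.76 CPM in the other 5 lines. These 3 lines are also the top 3 for Nes, although in another order. The 8 neuron and glia markers summed to 9.14 and 13.7 CPM in lines 794 and 801 and 7.503 CPM in line 650, against 3.28 to 5.57 CPM elsewhere. Much of that came from 1 gene, Uchl1, at 6.14, 7.44 and 3.21 CPM in lines 794, 801 and 650 and at most 1.23 CPM elsewhere. Without it the sum was 3.00 CPM in line 794, 6.23 CPM in line 801 and 2.90 to 4.34 CPM in the others. The 7 smooth muscle and pericyte markers, Acta2 among them, followed Nes in some lines only. They summed to 220 CPM in line 801 and 119.7 CPM in line 650, but also to 119.1 CPM in line 752. In line 794, where Nes was highest, the sum was 3.63 CPM. It was 36.7 CPM in line 565 and 6.24 to 10.8 CPM in the remaining lines. The 8 endothelial markers summed to at most 8.39 CPM (line 1269) and the 8 immune markers, with Emr1, a macrophage marker, at 0, to at most 2.06 CPM. The part of such cells in the Nes and Enpp2 values was not tested.

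Iyd was even across non-dysplastic lines and lower in all dysplastic lines. Its libraries read 40.5 and 61.1 CPM in line 300, 47.3 and 34.5 CPM in line 1269, 50.1 and 35.9 CPM in line 650, and 52.2 and 35.8 CPM in line 1270. The line sums, from 40.9 to 50.5 CPM, did not differ beyond the spread of these libraries. The WT dysplastic libraries ran from 16.1 through a median of 20.5 to 30.5 CPM and the KO dysplastic libraries from 4.13 through 10.1 to 17.8 CPM. No dysplastic library reached the non-dysplastic range, and of the KO dysplastic libraries only 801-3 reached that of the WT dysplastic ones. Dysplastic lines averaged 15.9 ± 8.26 CPM of Iyd, against 44.4 ± 4.28 CPM for non-dysplastic lines (SD, n = 4 each). From the highest down, the dysplastic lines were 752 (26.6 CPM), 565 (16.6 CPM), 801 (13.7 CPM) and 794 (6.72 CPM), of which 565 and 801 overlapped in their libraries. The difference from non-dysplastic lines was -1.08 ± 0.37 among WT and -2.08 ± 0.38 among KO lines on the log2 scale (SE).

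Nt5e showed the smallest spread between non-dysplastic lines. Line sums there were 211, 206, 201 and 219 CPM in lines 300, 1269, 650 and 1270, although libraries of 1 line differed by up to 1.62-fold (line 1269, with 160 and 259 CPM). The WT dysplastic libraries ran from 112 through a median of 140 to 153 CPM, and the KO dysplastic libraries from 83.5 through 103 to 131 CPM. All dysplastic libraries lay below all non-dysplastic ones, while WT and KO dysplastic libraries overlapped. Means were 123 ± 24.8 CPM for dysplastic lines and 209 ± 7.47 CPM for non-dysplastic lines (SD, n = 4 each). Line 794 (89.2 CPM) was the lowest in each of its libraries, and lines 801 (125 CPM) and 752 (129 CPM) were not apart. The difference from non-dysplastic lines was -0.58 ± 0.19 among WT and -0.97 ± 0.19 among KO lines on the log2 scale (SE).

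Gyk was lower mainly in the KO dysplastic lines. Its libraries read 132 and 125 CPM in line 300, 123 and 84.3 CPM in line 1269, 142 and 98.3 CPM in line 650, and 138 and 98.8 CPM in line 1270. WT dysplastic libraries ran from 84.2 through a median of 90.1 to 123 CPM and KO dysplastic libraries from 42.1 through 53.2 to 62.6 CPM. The KO dysplastic libraries were below all others, but 5 of the 12 dysplastic libraries, all WT, lay within the non-dysplastic range. WT line 752, at 100.9 CPM, and line 1269, at 103.4 CPM, were barely apart. Without the 6 libraries that stood apart the same lines read 104.3 and 102.9 CPM, so that Gyk no longer separated the classes. Dysplastic lines averaged 74.6 ± 25.4 CPM of Gyk, and non-dysplastic lines 117 ± 11.2 CPM (SD, n = 4 each). The difference was -0.27 ± 0.17 among WT and -1.16 ± 0.17 among KO lines on the log2 scale (SE). For this X-linked gene the male lines 300 and 650 read 129 and 123 CPM, and the female non-dysplastic lines 1269 and 1270 read 103.4 and 114 CPM. With line sex added as a covariate, the difference between dysplasia classes was -0.61, against -0.72 without it.

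KO against WT is a contrast that did not choose the genes, although Enpp2 and Nes had been seen earlier to differ between KO and WT dysplastic lines, which makes their values here no independent support. Among dysplastic lines, Enpp2 averaged 50.1 ± 32.8 CPM with KO against 3.59 ± 0.146 CPM with WT, Nes 32.7 ± 14.5 and 5.79 ± 0.881 CPM, and Gyk 52.96 ± 5.01 and 96.2 ± 6.72 CPM (SD, n = 2 lines each). Both KO lines were above both WT lines for Enpp2, Cp and Nes, as held for 19.0% of all genes tested, and below them for Iyd, Nt5e and Gyk, as held for 18.0%. The log2 differences were 3.80 ± 0.64 for Enpp2, 2.497 ± 0.69 for Nes, 1.07 ± 0.75 for Cp, -1.08 ± 0.37 for Iyd, -0.38 ± 0.19 for Nt5e and -0.86 ± 0.17 for Gyk (SE). For each gene this difference had the sign of its difference between dysplastic and non-dysplastic lines. The share of all genes with such agreement was not counted, so nothing is read from it.

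EdgeR's quasi-likelihood test called none of the 6 genes between KO and WT dysplastic lines, and called 0% of all genes. All 6 adjusted p-values were 1, with 588 of all genes and 4 of the 6 (Enpp2, Nes, Iyd and Gyk) at an unadjusted p under 0.05. DESeq2 on the same line sums called Enpp2 (adjusted p = 8.73e-07), Gyk (0.00719) and Nes (0.0290) among 69 genes, or 0.512% of those tested. Limma-voom on libraries with lines as correlated blocks called the same 3 among 103 genes, at adjusted p-values of 0.00315 for Enpp2, 0.0186 for Nes and 0.0313 for Gyk. Its 1 line correlation, 0.219 for all genes, lets libraries of a line count in part as replicates. With a replicate block in that fit Gyk was not called (adjusted p = 0.127), and 38 genes were called in all. Over the 15 alternatives the adjusted p ran from 8.73e-07 to 1 for Enpp2, from 0.0186 to 1 for Nes and from 0.00719 to 1 for Gyk. The directions of all 3 were kept in all 15, and their log2 differences ranged from 2.90 to 4.34, from 1.96 to 2.88 and from -0.97 to -0.77.

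Among non-dysplastic lines, Enpp2 averaged 1.87 ± 1.09 CPM with KO, against 0.405 ± 0.236 CPM with WT (SD, 2 lines each), which is a log2 difference of 2.21 ± 0.73 (SE). Both KO lines were above both WT lines, but the share of all genes with such an order was not counted. The WT sums rest on 12 counts in line 300 and 6 in line 1269. KO library 1270-2, at 0.357 CPM, was below both libraries of line 300 and above both of line 1269. Nes differed by 1.44 ± 0.68, a value that was -0.02 without line 650. Cp differed by -1.77 ± 0.79, WT line 1269 at 35.1 CPM being the only one of the 4 lines above 9.37 CPM. Iyd, Nt5e and Gyk differed by -0.09 ± 0.36, 0.01 ± 0.19 and 0.02 ± 0.17 on the log2 scale (SE). EdgeR called 0% of genes here, with 257 at an unadjusted p under 0.05, of the 6 only Enpp2. DESeq2 called 6 genes, or 0.0445%, limma-voom 5, and none was among the 6.

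Whether the KO effect differed between dysplasia classes was tested as an interaction. The log2 interaction was 2.84 ± 1.09 for Cp and -0.88 ± 0.24 for Gyk (SE), the 2 genes of the 6 with an unadjusted p under 0.05, and neither was called, the adjusted p in edgeR's test being 0.9998 for both. For Enpp2, Nes, Iyd and Nt5e it was 1.59 ± 0.96, 1.05 ± 0.94, -0.998 ± 0.52 and -0.39 ± 0.27. EdgeR, DESeq2 and limma-voom each called 0 genes in this comparison, 0% of those tested, with 241 at an unadjusted p under 0.05 in edgeR. The KO effect on Cp had opposite signs in the 2 classes, as did those on Nt5e and Gyk, whose values among non-dysplastic lines were within 1 SE of 0. Without line 1269 its interaction was 1.15 and with each other line left out between 2.20 and 3.87, so that its size rested in part on that line.

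As a mean of both classes, KO differed from WT by 3.01 ± 0.48 for Enpp2, 1.97 ± 0.48 for Nes, -0.42 ± 0.12 for Gyk, -0.58 ± 0.26 for Iyd, -0.18 ± 0.14 for Nt5e and -0.35 ± 0.54 for Cp on the log2 scale (SE). Enpp2 had the smallest unadjusted p of all but 3 genes, but its adjusted p in edgeR's test was 0.739, and 0% of genes were called, with 543 at an unadjusted p under 0.05, among them Enpp2, Nes and Gyk. DESeq2 called Enpp2 (adjusted p = 3.08e-07) and Nes (0.00684) among 73 genes, or 0.542%, and limma-voom called 63 genes and none of the 6. Over the 15 alternatives the adjusted p ran from 3.08e-07 to 1.00 for Enpp2 and from 0.00684 to 1.00 for Nes. For Enpp2 and Nes this mean includes the difference among dysplastic lines that had been seen earlier, so it is no independent support. For Cp the mean turned to 0.47 without line 1269. The plot of the log2 differences sets both contrasts side by side.

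**Figure D2:**
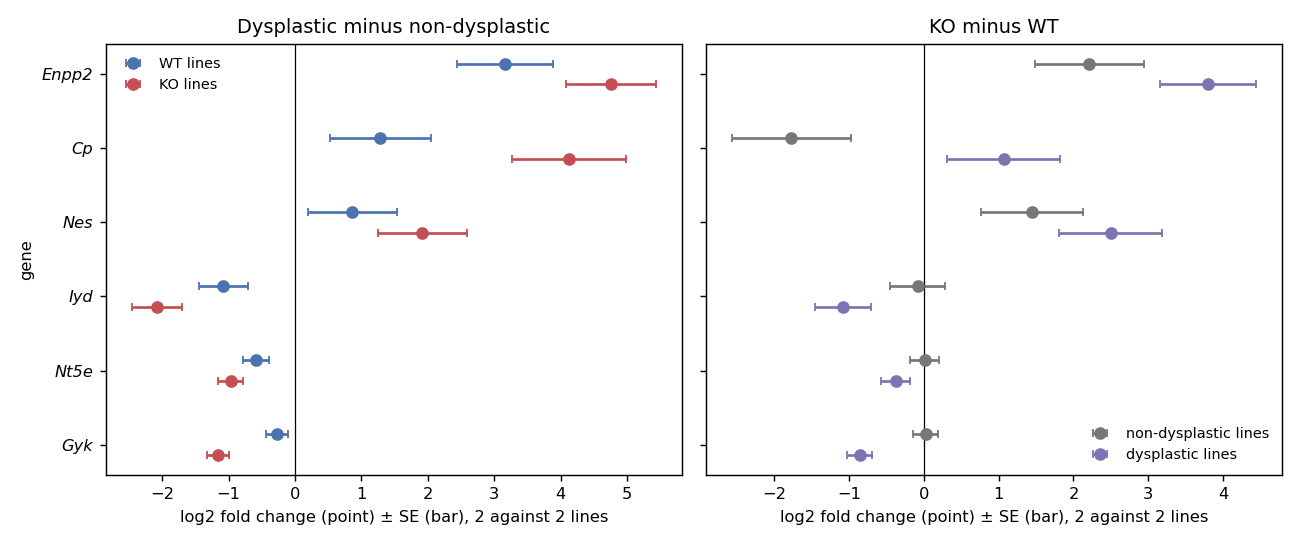
Log2 fold changes (points) with their SE (bars) from edgeR's fit for the 6 genes: on the left dysplastic minus non-dysplastic lines within WT and within KO, on the right KO minus WT within each dysplasia class, 2 lines against 2 throughout. On the left every KO point is farther from 0 than the WT point of the same gene; on the right Iyd, Nt5e and Gyk lie near 0 among non-dysplastic lines and below 0 among dysplastic lines, and Cp changes sign.

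The libraries that stood apart were set against their sisters for each gene, and no gene passed after adjustment. With 6 lines, 1 gene alone at the smallest possible exact p could not have passed adjustment over 6 genes. No conclusion is therefore drawn from the lack of a pass. In lines 300 and 650 the sign of the difference also depends on which library is taken to differ, which the slope does not tell. For Cp in line 794 the third library read 46.9 CPM against a mean of 128 CPM in its sisters, and in line 801 it read 51.8 against 116 CPM. Across the 6 lines, Cp in these libraries was lower than in their sisters by a mean log2(CPM + 1) difference of -0.65 ± 0.54 (SD, n = 6 lines), in 5 of 6 lines. The two-sided exact permutation p was 0.0625, where 0.0313 is the smallest possible, and 0.281 adjusted over the 6 genes. Gyk was lower in 5 of 6 lines too, by -0.19 ± 0.24 (adjusted exact permutation p = 0.281). Enpp2 (-0.10 ± 0.68), Nes (0.10 ± 0.49), Iyd (0.17 ± 0.44) and Nt5e (0.02 ± 0.16) had exact permutation p-values of 0.406 or more, and 0.75 after adjustment. For Enpp2 the mean hides line 794, where the library read 36.4 CPM against 84.8 CPM in its sisters. Without these 6 libraries, Cp read 132 and 120 CPM in lines 794 and 801 and Enpp2 87.8 and 27.9 CPM. The plot of these differences shows each line.

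**Figure D3:**
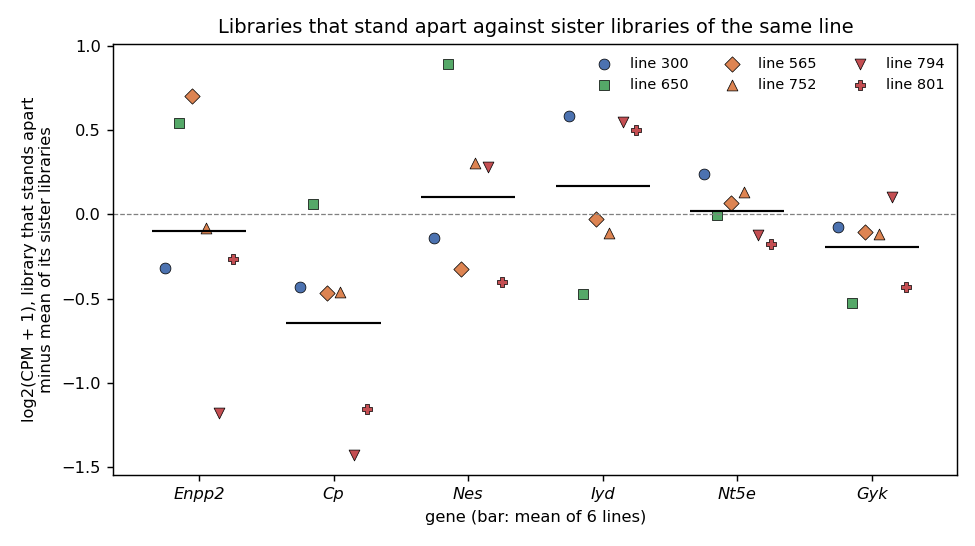
Difference in log2(CPM + 1) between the library that stood apart and the mean of its sister libraries, for each of the 6 genes; symbols are the 6 lines that hold such a library and black bars the mean over lines. For Cp, 5 of 6 lines are below 0, with lines 794 and 801 the lowest, while Nt5e stays close to 0 in all 6.

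Within a line, log2(CPM + 1) varied between libraries with an SD of 0.476 for Enpp2, 0.504 for Cp, 0.372 for Nes, 0.331 for Iyd, 0.220 for Nt5e and 0.261 for Gyk. Between lines the SD was 2.07, 1.80, 1.30, 0.976, 0.467 and 0.508 in the same order. The between-line SD holds the dysplasia contrast that picked the genes. Among the 4 non-dysplastic lines alone it was 0.671, 1.33, 0.943, 0.132, 0.051 and 0.138, which for Iyd, Nt5e and Gyk was below the SD between libraries of a line.

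How alike the 6 genes were over the 8 lines was described by Pearson correlation of log2(CPM + 1), without a test, since the genes were chosen on these same lines, which also share their scaling. Iyd correlated with Nt5e at 0.95 and with Gyk at 0.94, and Enpp2 with Nes at 0.93. Without lines 794 and 801 these values were 0.82, 0.89 and 0.66 over 6 lines. Nes and Gyk went from -0.82 to 0.04 when those lines were left out, so that their opposition rested on them. Cp had none of the other 5 among its nearest 100 of 10458 genes with a mean of at least 5 CPM. Only the highest positive correlations count as nearest there. Cp correlated with Enpp2 and Nes at 0.72 and 0.63, and with Iyd, Nt5e and Gyk at -0.84, -0.85 and -0.82.

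Each gene's closest companions were taken from the same correlation. Enpp2 was most like Parp14, an ADP-ribosyltransferase (0.987), Rnf24, a RING finger protein (0.983), and Irf9, the DNA-binding subunit of the interferon-activated ISGF3 complex (0.982). Those of Nes were Fstl1, a secreted follistatin-like glycoprotein (0.978), Cav1, the main caveolae protein (0.976), and Htra1, a secreted serine protease (0.972). For Cp they were Lrig3 (0.987), the kinase gene Camkk2 (0.964) and Sh3rf1 (0.953). Since only positive correlation was ranked, the genes lower in dysplastic lines could hardly share companions with those higher there. Iyd was close to Inpp5j, an inositol phosphatase (0.970), and Acaa2, a mitochondrial thiolase (0.960). Nt5e was close to Iyd (0.946) and Il17ra (0.945), and Gyk to Ckmt1, a mitochondrial creatine kinase (0.985), Acad8, an acyl-CoA dehydrogenase (0.974), and Sh3glb2 (0.972). With 8 points, the gene at rank 100 still had a correlation of 0.856 (Nt5e) to 0.906 (Gyk).

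The 6 lists, called pathway lists here, hold genes of the same pathway or gene family as each of the 6. Of their genes, 109 were tested. EdgeR called none between dysplastic and non-dysplastic lines, as it called 0% of all genes, with 10 of the 109 and 797 of all genes at an unadjusted p under 0.05. DESeq2 called 3 of them, all higher and 2 of them described here, among 153 genes or 1.14% of those tested, and limma-voom called 144 genes. The median log2 difference over all genes was -0.02. The plot of list genes sets each of the 6 beside its list.

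**Figure D4:**
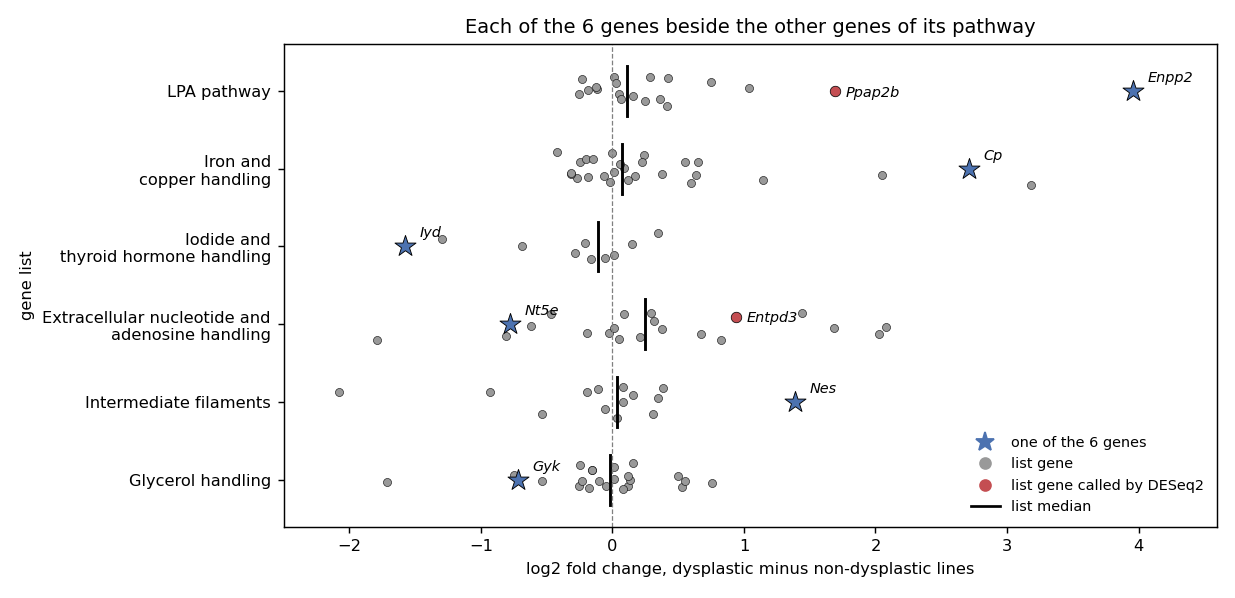
Log2 fold change, dysplastic minus non-dysplastic lines, for the tested genes of 6 pathway lists (grey points; red where DESeq2 called the gene; 1 gene is not plotted), with the list median (black bar) and the gene from among the 6 that the list was built around (star), whose own value was used to choose it. List medians lie between -0.11 and 0.25, while the stars run from -1.58 for Iyd to 3.96 for Enpp2.

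In the LPA list, 18 of 22 genes were tested, 13 with positive and 5 with negative values, with a median of 0.11. The list also holds other genes of the Enpp family, so these counts are not of LPA genes alone. The one DESeq2 called was Ppap2b, now named Plpp3, a membrane phosphatase that degrades LPA, with a mean of 7.46 ± 6.80 CPM over dysplastic lines, against 1.96 ± 0.698 CPM over non-dysplastic lines (SD, n = 4 each). Its log2 difference was 1.69 ± 0.43 (SE), with an adjusted p of 0.0222 in DESeq2 and 0.634 in edgeR, and line 794 read 17.4 CPM against 2.06 to 6.13 CPM in the other dysplastic lines, of which line 565 was below line 650 (2.95 CPM). The related phosphatase Ppap2c, at 215 ± 21.99 and 233 ± 38.7 CPM, the acyltransferase Lpcat3 (205 ± 29.4 and 200 ± 29.3 CPM) and the phospholipase Liph (132 ± 31.6 and 154 ± 29.1 CPM) were not called. These 3 were the most abundant of the list.

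In the iron and copper list, 26 of 28 genes were tested, 15 with positive and 11 with negative values, with a median of 0.07, and none was called by edgeR or DESeq2. The ferritin light chain gene Ftl1 averaged 1666 ± 249 CPM over dysplastic and 1685 ± 303 CPM over non-dysplastic lines, and the ferric reductase gene Cybrd1 1164 ± 350 and 1099 ± 695 CPM (SD, n = 4 each). For Tfrc, the transferrin receptor, the values were 735 ± 173 and 978 ± 186 CPM.

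The iodide and thyroid hormone list had 10 of 18 genes tested, 4 positive and 6 negative, with a median of -0.11. EdgeR called none of them. The hydrogen peroxide source Duox2 (206 ± 55.1 CPM over dysplastic and 232 ± 102 CPM over non-dysplastic lines, SD, n = 4 each), its maturation factor Duoxa2 (115 ± 34.8 and 120 ± 65.6 CPM) and the receptor Thra (19.7 ± 5.21 and 22.8 ± 4.81 CPM) were not called by DESeq2 either.

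In the nucleotide and adenosine list, 20 of 23 genes were tested, 14 positive and 6 negative, with a median of 0.25. Entpd3, an ectoenzyme that hydrolyses extracellular ATP and ADP upstream of CD73, was called by DESeq2 (adjusted p = 0.0208, against 0.595 in edgeR). Its mean was 29.4 ± 6.45 CPM over dysplastic and 15.5 ± 4.37 CPM over non-dysplastic lines (SD, n = 4 each), with all 4 dysplastic lines higher and a log2 difference of 0.94 ± 0.22 (SE), opposite in sign to that of Nt5e. Entpd5, a nucleotidase of the endoplasmic reticulum, read 142 ± 68.2 and 201 ± 24.2 CPM and was not called in this comparison. Between KO and WT dysplastic lines it was the only gene of the 6 lists that DESeq2 called, at 72.2 and 101 CPM in lines 794 and 801 against 173 and 223 CPM in lines 565 and 752 (log2 difference -1.19, adjusted p = 0.00682 in DESeq2 and 1 in edgeR). Pnp (177 ± 54.0 and 179 ± 25.1 CPM) and Adk (46.3 ± 12.5 and 37.2 ± 2.02 CPM), which use up nucleosides inside the cell, were not called.

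The intermediate filament list had 13 of 18 genes tested, 7 positive and 6 negative, with a median of 0.04, and no gene called by edgeR or DESeq2 or at an unadjusted p under 0.05. Its most abundant genes were the simple epithelial keratins, with Krt19 at 4164 ± 267 CPM over dysplastic and 3942 ± 744 CPM over non-dysplastic lines, Krt8 at 3213 ± 442 and 3460 ± 538 CPM, and Krt7 at 2567 ± 275 and 2100 ± 511 CPM (SD, n = 4 each). The glycerol list had 22 of 24 genes tested, 11 positive and 11 negative, with a median of -0.02, and none called. Gpd2, the mitochondrial dehydrogenase that acts on the product of glycerol kinase, averaged 180 ± 11.9 CPM over dysplastic and 215 ± 31.2 CPM over non-dysplastic lines. The acyltransferase gene Agpat6, now Gpat4, read 135 ± 12.9 and 134 ± 10.5 CPM, and the lipase gene Pnpla2 114 ± 10.01 and 106 ± 15.1 CPM.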

How the data were processed

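RNA-seq was measured in 20 libraries of mouse gastric organoids. Tools named by the submitters' processing notes are bcl2fastq and STAR 2.5, with build mm9; for annotation, gene counter and strand the sources used here give nothing. The values the authors deposited are raw read counts, 1 row for each gene symbol. Per the labels' protocols, libraries were made from purified total RNA with an mRNA kit. Groups came from the labels. Counts were summed per line, filtered with filterByExpr, scaled by TMM and fitted with 1 mean per genotype and dysplasia combination (4 residual degrees of freedom) in edgeR 4.0.16 (quasi-likelihood, robust; R 4.3.3), with Benjamini-Hochberg adjustment over all genes and a threshold of 0.05. Alternatives were DESeq2 1.42.0, limma 3.58.1 (voom on libraries, line correlation 0.219), RLE scaling, no filter, sex as a covariate, omission of the 6 libraries that stood apart (taken from an earlier analysis of these data), and omission of each line.

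An SE is that of the fitted log2 fold change, and mean ± SD is over lines. The members and gene lists were chosen with earlier results of these data known. Named genes were the 6, Trp53, from each list up to 4 genes called (by DESeq2 where edgeR called none) and the 3 most abundant, and the 3 most correlated genes per member; Entpd5 in KO against WT, and single markers, were named after their values were seen. No pair of libraries of a line agreed within sampling noise (smallest chi-square per degree of freedom 6.11). Of the table's symbols, 22452 matched RefSeq and 1347 an older symbol. Only edgeR's fit, for the dysplasia contrast, was checked on simulated counts. Some genes of the lists and some correlated genes are not reported here.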

Additional observations from a re-analysis of the deposited data

Results flagged for a closer look

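Nes in line 650 was 14.3 CPM, far above the other 3 non-dysplastic lines (2.86 to 3.497 CPM); its gap to the nearest took up 0.944 of the range over the 4 lines. Fibroblast markers were also highest in this line, at 35.8 CPM. Smooth muscle and pericyte markers summed to 119.7 CPM there, against at most 10.8 CPM in the other non-dysplastic lines. The part of such cells in the value was not tested.

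Nt5e in library 752-1 was 112 CPM, the lowest of the 6 WT dysplastic libraries, with a gap of 0.638 of their range. Among 42 groups examined in this way, chance flags about 1 in 20.

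Cp was lower in KO than in WT non-dysplastic lines and higher in KO than in WT dysplastic lines, with a log2 interaction of 2.84. In edgeR's test its unadjusted p was 0.0366 and its adjusted p 0.9998, so the difference between classes was not called.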

How the results depend on the processing

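EdgeR on line sums called 0 of the 6 genes between KO and WT. DESeq2 called 2 as a mean of both classes, among 73 genes (0.542% of those tested), and 3 among dysplastic lines, among 69 genes (0.512%). Limma-voom called 3 among dysplastic lines, among 103 genes. Of the pathway genes compared by dysplasia, DESeq2 called 3 (Ppap2b and Entpd3 among them) among 153 genes in all. Limma-voom called 3 pathway genes (Entpd3 and Dpp4 among them) among 144 genes in all, against 0 in edgeR. With a replicate block added to limma-voom these became 2 of the 6 genes (Enpp2 and Nes; the adjusted p of Gyk was 0.127) and 1 pathway gene, and calls over all genes among dysplastic lines fell from 103 to 38. The labels' library numbers were not taken to pair lines. In deviations from the line mean, same-numbered libraries of different lines correlated at -0.90 to 0.87 (median 0.11, 62 pairs). Such deviations mirror each other in lines with 2 libraries, so these correlations cannot decide whether the numbers pair lines. Library 3 of all 4 dysplastic lines stood apart.

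The dysplasia contrast chose the genes on these same lines, so a kept direction there is no support. Differences by dysplasia kept their direction in all 15 alternatives. That of Enpp2 ran from 3.501 without line 794 to 4.70 with sex as a covariate, against 3.96, and that of Nes from 1.03 without line 1270 to 2.12 without line 650, against 1.39. Among non-dysplastic lines, the Iyd difference between KO and WT was 0.18 without the 6 libraries that stood apart, against -0.09. With 1 line left out at a time, it ranged from -0.19 to 0.077, that of Gyk from -0.089 to 0.20, that of Nt5e from -0.031 to 0.072 and that of Nes from -0.017 to 2.18. The mean KO effect on Cp then ranged from -0.87 to 0.47. When a class is left with 1 line, its spread is assumed to equal that of the others. The cause of these changes was not tested. Enpp2 in line 1269 rests on 6 counts, which limits every fold change against it.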

Other observations

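A few list genes outside the naming rule, picked after their values were seen, stood out in line 794. Heph, which encodes hephaestin, a membrane ferroxidase related to ceruloplasmin, read 5.54 CPM there and at most 1.07 CPM in the other 7 lines. Alpl, a phosphatase that also acts on extracellular nucleotides, read 12.7 CPM in line 794, 3.49 CPM in line 801 and at most 2.14 CPM elsewhere. Adora2a, an adenosine receptor, read 2.94 and 0.620 CPM in lines 794 and 801 and at most 0.159 CPM in the other 6 lines. None of the 3 was called by edgeR or DESeq2, and the adjusted p in edgeR's test of dysplasia was 0.843 for Heph, 0.778 for Alpl and 0.858 for Adora2a.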
